A study of Mus musculus with 16 samples.

Results

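The 10 genes described here, Aif1l, Ephb4, Fibcd1, Dmrtc2, Slco5a1, Acox2, Plxnd1, Laptm4b, Cyth3 and Acy3, were taken from the 22114 protein-coding genes of 2 count tables by their symbols. They had been selected on measured values, the counts of the GFP libraries, since these were lower in every GFPhi library than in every GFPlo library of DN3 thymocytes, so their GFPhi and GFPlo values are a description and carry no test. The choice had no numerical threshold: of 94 genes with a GFPlo mean of at least 5 CPM and every GFPlo library over 4 times every GFPhi library, 9 were members, and Laptm4b lay just outside that range. The question asked of them was which genotypes of total DN3 cells contain these transcripts, since the choice did not use those libraries.

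GFPhi and GFPlo DN3 cells came from 2-month-old heterozygous TetOP-H2B-GFP KI/+ mice that also carried the CD2-Lmo2 transgene (Lmo2Tg). The mice received doxycycline for 6 weeks and were chased for 2 weeks without it, so that cells which divided often had diluted the histone-bound GFP (GFPlo) and cells which divided little had kept it (GFPhi). There were 3 libraries of each, from independent cohorts, and both populations carry the transgene, which drives Lmo2 in the T lineage. Total DN3 cells, not divided by GFP, were from 6-week-old wild-type (WT, 3 libraries), p21-deficient (p21-/-, 2 libraries), transgenic (Lmo2Tg, 2 libraries, L2 and L3) and transgenic p21-deficient mice (Lmo2Tg p21-/-, 2 libraries). The mice are labelled C57BL/6 (C57BL/6J in the study's methods), and poly-A RNA was sequenced. The methods describe pooled mice for expression profiling, so p-values here measure the spread between such samples. They give these mice as 6-week-old, whereas the 2-month age of the GFP mice is from a figure legend. The column names L2 and L3 also match labels of GFPlo samples and were read as Lmo2Tg because the other columns of that table are genotypes. They held 14003156 and 15176210 counts, of which 199 and 57 were of Acox2. GFPlo libraries 2 and 3 held 28436894 and 31106213, of which 1465 and 1601 were of Acox2. L2 and L3 are thus not the counts of these GFPlo libraries, and every Lmo2Tg value rests on the reading as Lmo2Tg.

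DN3 thymocytes are CD4- CD8- T-cell progenitors that rearrange the T-cell receptor beta chain gene and are held at the pre-T-cell receptor checkpoint. Lmo2 is a bridging protein without DNA-binding activity of its own that joins E-box-binding and GATA transcription factors in blood progenitors, and its forced expression gives DN3 cells self-renewal and leads to T-cell leukemia. p21, the product of Cdkn1a, inhibits cyclin-dependent kinases and slows the cell cycle. The 10 genes belong to no single pathway: they encode surface receptors (Ephb4, Plxnd1, Fibcd1), a membrane transporter and a lysosomal membrane protein (Slco5a1, Laptm4b), regulators of actin and of ARF GTPases (Aif1l, Cyth3), enzymes (Acox2, Acy3) and a transcription factor (Dmrtc2).

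GFP libraries held 26861394 to 31106213 counts and genotype libraries 13864936 to 16837667. Levels are given as CPM, counts scaled to library size with TMM factors, and 3 counts correspond to 0.0966 to 0.112 CPM in the GFP libraries and to 0.176 to 0.222 CPM in the genotype libraries, counting error only. Lmo2 had 1 to 5 counts in WT and p21-/- libraries and 560 to 1772 in the 4 transgenic ones. Cdkn1a had 244 and 280 counts in p21-/- and 58 and 61 in Lmo2Tg p21-/- libraries, against 590 to 810 in WT and 385 and 444 in Lmo2Tg libraries. GFPhi replicate 3 stood apart from the other GFPhi libraries, with 7651 Lmo2 counts against 865 and 1464 and with 176 Cdkn1a counts against 877 and 975. All 10 DN3 markers looked at, among them Il2ra, Ptcra, Rag1 and Notch1, were present in every library, and 0 were called between GFPhi and GFPlo cells. In Lmo2Tg against WT cells (more than 2-fold, FDR 0.05) Ptcra, Cd3g, Rag1, Rag2 and Notch3 were called lower and 0 higher. Of 8 tested markers of cells past pre-TCR selection, Cd5, Cd8a, Nr4a1 and Egr1 were called higher there and 0 lower. Of all genes 7.29% were called higher and 4.7% lower. The part of these marker differences in the member results was not tested. Of 5 thymic epithelial markers Epcam had means of 19.2 CPM in GFPlo and 57.6 CPM in GFPhi cells, and Foxn1, Psmb11, Krt5 and Krt8 were under 0.1 CPM on average in both. Of 6 B lineage markers Cd79b was alike (22.5 and 23.0 CPM), whereas Ms4a1 was called higher in GFPhi cells (0.0107 to 3.9 CPM), and Pax5 (0.0555 and 2.9 CPM) and Cd22 (0.0562 and 3.5 CPM) were not called. Summed over 6 genes, myeloid markers were 15.2 to 16.4 CPM in GFPlo and 10.5 to 12.3 CPM in GFPhi libraries. Itgam, Lyz2, Cd68 and Mpo were lower on average in GFPhi cells, whereas Csf1r (0.0231 and 0.6 CPM) and Adgre1 (0.0438 and 0.269 CPM) were higher. Of 7 endothelial markers Pecam1 had means of 226 CPM in GFPlo and 213 CPM in GFPhi cells. Cdh5, Kdr, Tek, Emcn, Vwf and Esam were at most 0.226 CPM on average in both. The part of such cells in the results was not tested. None of 12 proliferation genes passed a 2-fold change and an FDR of 0.01 between GFPhi and GFPlo cells (edgeR's quasi-likelihood test, p-values adjusted by Benjamini-Hochberg), where 2.25% of all 11581 genes tested passed, 0.302% higher and 1.95% lower in GFPhi cells. Their median log2 change was -0.31, and all 12 had values below 0, the lowest -0.39 for Cdk1. Mki67 ranged from 949 to 1510 CPM in GFPlo and from 654 to 1210 CPM in GFPhi libraries, which overlapped. The word cycling rests on the loss of GFP and on the study's own assays, not on these 12 transcripts. By Ki67 and DNA staining the study found most GFPhi cells resting and a smaller share of GFPlo cells. It also reported lower expression of cell-cycle gene sets in GFPhi cells.

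The promoters of 4 genes are shown because they belong to the genes on which the results turn: Acox2, the member with the largest difference between genotypes, Fibcd1 and Aif1l, which lie close together on chromosome 2 and were low in the same libraries, and Ephb4. Each run covers 250 bases before to 50 bases after a RefSeq start of the gene, 5′ to 3′ on the gene's strand, on GRCm38.p6. The starts of Fibcd1 and Ephb4 are the outermost GENCODE starts given further on. Those of Acox2 and Aif1l differ from them, and the Acox2 window lies inside the GENCODE gene. Capitals mark every match to the E-box CANNTG, which reads the same on both strands. RefSeq promoters were matched for 8 of the 10 genes, and Slco5a1 and Laptm4b had no entry in the table used.
Acox2 (chr14:8258970-8259269, minus strand): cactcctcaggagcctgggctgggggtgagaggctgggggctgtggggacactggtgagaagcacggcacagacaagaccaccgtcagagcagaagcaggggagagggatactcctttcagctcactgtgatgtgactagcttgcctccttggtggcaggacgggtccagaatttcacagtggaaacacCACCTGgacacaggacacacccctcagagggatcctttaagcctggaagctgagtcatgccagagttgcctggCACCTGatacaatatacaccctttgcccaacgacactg
Fibcd1 (chr2:31845956-31846255, minus strand): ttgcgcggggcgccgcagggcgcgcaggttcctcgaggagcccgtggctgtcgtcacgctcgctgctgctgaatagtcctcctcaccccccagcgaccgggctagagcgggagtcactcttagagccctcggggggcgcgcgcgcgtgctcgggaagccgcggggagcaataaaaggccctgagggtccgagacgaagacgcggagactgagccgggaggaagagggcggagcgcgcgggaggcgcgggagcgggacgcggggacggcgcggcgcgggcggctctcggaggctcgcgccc
Aif1l (chr2:31950053-31950352, plus strand): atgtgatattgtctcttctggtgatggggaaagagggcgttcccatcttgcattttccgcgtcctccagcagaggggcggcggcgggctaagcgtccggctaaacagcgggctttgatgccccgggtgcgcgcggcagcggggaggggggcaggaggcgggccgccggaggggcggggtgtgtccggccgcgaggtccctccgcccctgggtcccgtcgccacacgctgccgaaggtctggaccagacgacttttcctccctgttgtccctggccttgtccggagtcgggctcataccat
Ephb4 (chr5:137349859-137350158, plus strand): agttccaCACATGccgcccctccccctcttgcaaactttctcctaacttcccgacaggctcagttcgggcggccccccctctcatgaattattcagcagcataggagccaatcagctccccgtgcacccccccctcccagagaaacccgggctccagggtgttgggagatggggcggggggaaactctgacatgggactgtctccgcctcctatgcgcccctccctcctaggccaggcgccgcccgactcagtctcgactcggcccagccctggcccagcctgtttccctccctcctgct
The Acox2 promoter held 2 E-boxes, both with the letters CACCTG, and a second RefSeq start of Acox2 held the same 2 sites. An E-box was present in 72.1% of 27025 promoters of the same length and CACCTG, on either strand, in 20.0%. No E-box was found in the Fibcd1 and Aif1l windows, which held 46 and 29 CpG dinucleotides against a median of 7 over all promoters. The Ephb4 window held 1 E-box with the letters CACATG, 14 CpG and 4 matches to the GC box GGGCGG, counted on both strands, which 35.9% of promoters contain. These are matches of letters, and binding was not measured.

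In GFPlo cells every one of the 10 genes was above its level in every GFPhi library, as the choice required (21.7% of all genes tested had such an order). Of the 10 genes, 5 were below 1 CPM in every GFPhi library and 5 were at 1.60 CPM or more in each of them. In 9 of the 10 genes the lowest GFPlo library was replicate 1, but the share of all genes lowest there is not given here, so this is no trait of the members. GFPhi replicate 3, which stood apart over all genes, gave values of the same order as the other GFPhi libraries except in Slco5a1 (1 count against 4 and 7). Log2 fold changes of GFPhi against GFPlo were between -7.79 for Fibcd1 and -2.29 for Laptm4b, and between -8.15 and -2.31 without GFPhi replicate 3. By log2 fold change, lowest first, Fibcd1 ranked 2, Aif1l 4, Dmrtc2 6, Slco5a1 11 and Ephb4 12 of 11581 genes, whereas Acox2 ranked 117, Acy3 170, Plxnd1 180, Cyth3 283 and Laptm4b 309.

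Gene positions are from GENCODE M21 on GRCm38. Aif1l (ENSMUSG00000001864, chromosome 2 from 31950139 to 31973442), an actin-binding relative of allograft inflammatory factor 1, had 23.4, 37.1 and 36.1 CPM in GFPlo libraries 1 to 3 and 0.0735, 0.273 and 0.112 CPM in GFPhi libraries 1 to 3. This is a log2 fold change of -7.66 (SE 0.43) from 2 to 8 counts per GFPhi library. In total DN3 cells Aif1l had 0.490, 0.509 and 0.726 CPM in WT, 0.528 and 0.696 in p21-/-, 1.33 and 0.410 in Lmo2Tg and 1.14 and 0.725 in Lmo2Tg p21-/- libraries. The order of means was Lmo2Tg p21-/-, Lmo2Tg, p21-/- and WT, but the groups overlapped and no neighbours in that order were separated. All 9 libraries together spanned 6 to 18 counts, so no genotype of total DN3 cells, Lmo2Tg included, came near the level of the GFPlo libraries.

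Ephb4 (ENSMUSG00000029710, chromosome 5 from 137350109 to 137378669), the receptor tyrosine kinase for ephrin-B2, had 24.6, 34.7 and 41.3 CPM in GFPlo and 0.514, 0.444 and 0.447 CPM in GFPhi libraries, a log2 fold change of -6.15 (SE 0.26). In total DN3 cells its values were 0.674, 1.21 and 0.847 CPM in WT, 0.821 and 2.53 in p21-/-, 2.37 and 0.547 in Lmo2Tg and 1.21 and 1.75 in Lmo2Tg p21-/- libraries. The Lmo2Tg pair held both the next to highest and the lowest value of the 9, so the 4 genotypes could not be put in an order.

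Fibcd1 (ENSMUSG00000026841, chromosome 2 from 31813290 to 31846005), a membrane receptor that binds acetylated sugars such as chitin, had 5.40, 6.11 and 7.31 CPM in GFPlo libraries and 0, 1 and 1 counts in GFPhi libraries. Against 3 counts per library, the mean of GFPlo cells was at least 56.0-fold higher. Total DN3 cells held 7 to 19 counts in each of the 9 libraries, that is 0.445 to 1.11 CPM with group means from 0.757 in WT to 0.905 in p21-/- libraries. By value, Fibcd1 was above its GFPhi level in all genotypes, with or without the transgene, and its GFPlo mean was 7.39-fold above the Lmo2Tg mean. These comparisons cross tables that were counted and normalised separately, and they were not tested.

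Dmrtc2 (ENSMUSG00000011349, chromosome 7 from 24870057 to 24877651), a DM-domain transcription factor of the male germ line, had 3.81, 6.57 and 6.47 CPM in GFPlo libraries and 2, 1 and 0 counts in GFPhi libraries, so the GFPlo mean was at least 50.1-fold higher. In total DN3 cells it had 3, 1 and 1 counts in WT, 1 and 0 in p21-/- and 2 and 2 in Lmo2Tg libraries. Only the Lmo2Tg p21-/- libraries were higher, with 21 and 8 counts (1.5 and 0.483 CPM). Dmrtc2 did not pass the filter on low counts in the genotype table, so it has no test in the fit used here. Without the filter it was called higher in Lmo2Tg p21-/- than in p21-/- cells.

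Slco5a1 (ENSMUSG00000025938, chromosome 1 from 12866549 to 12992650), a member of the organic anion transporter family, had 9.65, 14.1 and 15.9 CPM in GFPlo and 0.147, 0.239 and 0.0372 CPM in GFPhi libraries, a log2 fold change of -6.49 (SE 0.49). In total DN3 cells it had 0.184, 0 and 0.121 CPM in WT, 0.117 and 0.696 in p21-/-, 0.666 and 0.479 in Lmo2Tg and 0.928 and 0.543 in Lmo2Tg p21-/- libraries. WT was lowest in the order of means and did not overlap the transgenic libraries, but p21-/- replicate 2 with 11 counts lay among them.

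The other 5 genes were not restricted to GFPlo cells. Acox2 (ENSMUSG00000021751, chromosome 14 from 8225511 to 8259353), the peroxisomal oxidase for branched-chain fatty acids and bile acid precursors, had 50.7, 51.2 and 51.6 CPM in GFPlo and 3.86, 4.95 and 4.06 CPM in GFPhi libraries, the narrowest GFPlo spread of the set. Among total DN3 cells it was near the detection limit without the transgene, at 0.429, 0.445 and 0.484 CPM in WT and 0.176 and 0.696 CPM in p21-/- libraries. With the transgene it had 14.7 and 3.90 CPM in Lmo2Tg and 10.1 and 8.51 CPM in Lmo2Tg p21-/- libraries. All 4 transgenic libraries lay above all 5 others, and the transgenic groups overlapped each other.

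Plxnd1 (ENSMUSG00000030123, chromosome 6 from 115954811 to 115995005), a plexin that responds to semaphorin 3E and steers thymocyte migration, had 48.3, 58.9 and 63.0 CPM in GFPlo and 7.09, 7.99 and 6.59 CPM in GFPhi libraries. In total DN3 cells it had 36.6, 35.9 and 34.0 CPM in WT and 32.7 and 34.2 in p21-/- libraries, but 20.0 and 15.9 in Lmo2Tg and 16.1 and 16.2 in Lmo2Tg p21-/- libraries. WT and p21-/- overlapped, as did both transgenic groups. By value, every transgenic library lay between the WT values and the GFPhi values, which are from the other, separately normalised table.

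Laptm4b (ENSMUSG00000022257, chromosome 15 from 34238028 to 34284302), a lysosomal membrane protein, had 135, 141 and 157 CPM in GFPlo and 27.9, 26.1 and 34.8 CPM in GFPhi libraries. It had 42.5, 39.4 and 48.3 CPM in WT and 40.9 and 46.4 in p21-/- libraries, against 82.7 and 58.4 in Lmo2Tg and 90.4 and 80.2 in Lmo2Tg p21-/- libraries. The order of means was Lmo2Tg p21-/- (85.3), Lmo2Tg (70.5), p21-/- (43.6) and WT (43.4), in which the transgenic pair of groups and the other pair each overlapped.

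Cyth3 (ENSMUSG00000018001, chromosome 5 from 143622447 to 143710250), an exchange factor for ARF GTPases that is recruited by phosphoinositides, had 33.0, 33.3 and 38.5 CPM in GFPlo and 7.05, 6.93 and 6.37 CPM in GFPhi libraries. The 9 libraries of total DN3 cells fell in a narrow range from 19.9 CPM in Lmo2Tg to 24.6 CPM in WT. Acy3 (ENSMUSG00000024866, chromosome 19 from 3986570 to 3990007), an aminoacylase that deacetylates mercapturic acids, had 16.5, 13.1 and 13.7 CPM in GFPlo and 1.62, 1.98 and 1.60 CPM in GFPhi libraries. Its 9 values in total DN3 cells ran from 6.36 CPM in Lmo2Tg to 9.80 CPM in WT, where the p21-/- values (8.32 and 8.48) and the Lmo2Tg values (8.58 and 6.36) lay below all 3 WT values and the Lmo2Tg p21-/- values (9.71 and 7.85) overlapped the other groups.

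**Figure D1:**
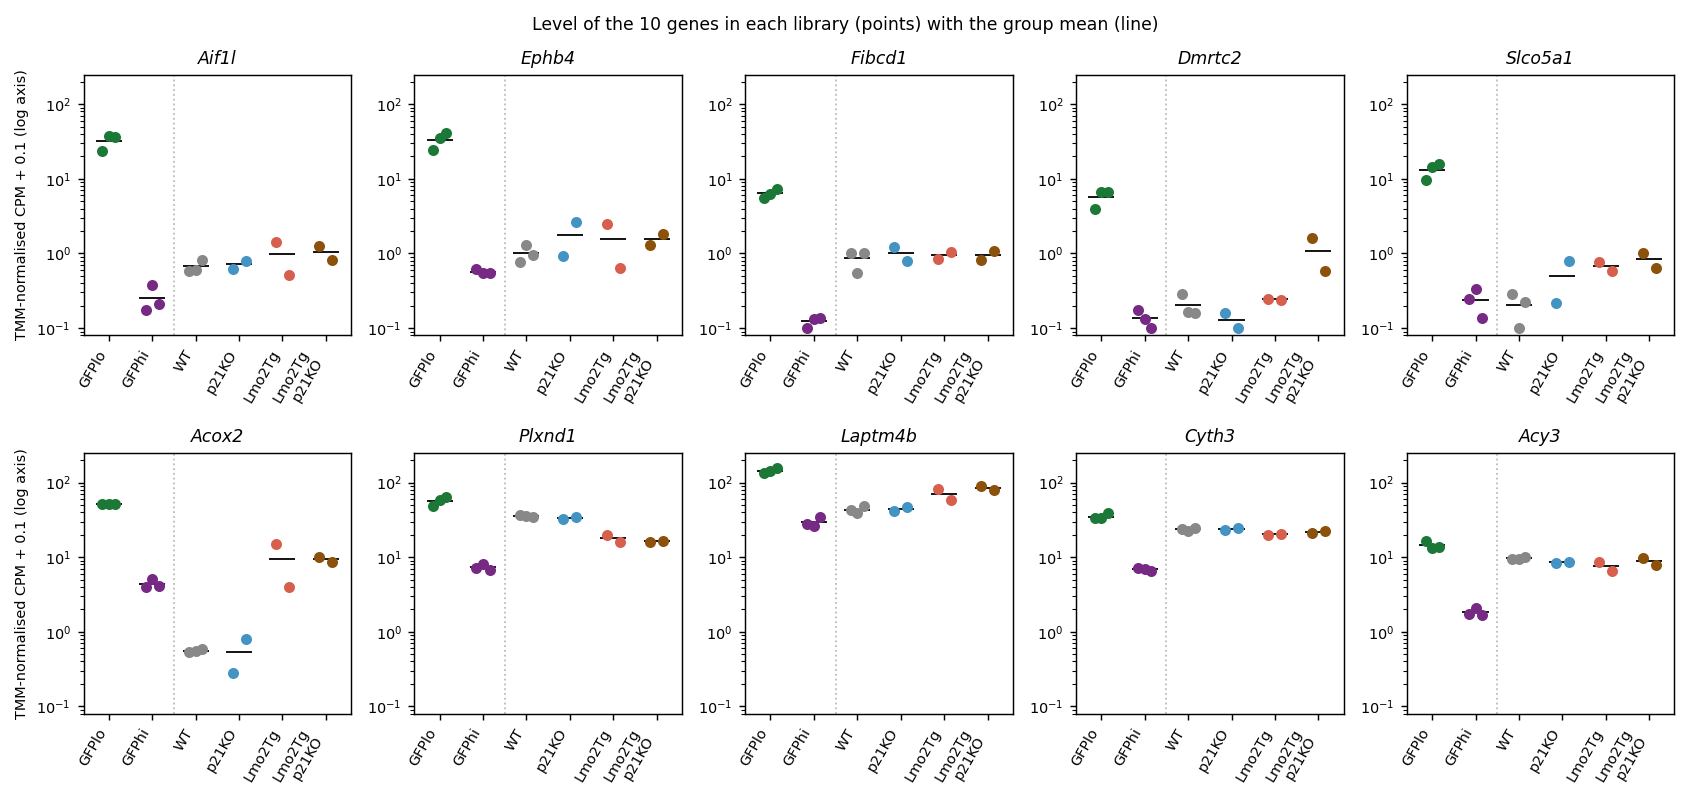
TMM-normalised CPM (plus 0.1, log axis) of each of the 10 genes in each library, with the mean of each group as a line; the dotted line divides the GFP table from the genotype table, which were normalised separately. The 5 genes of the upper row reach no more than 2.53 CPM in any genotype, whereas Acox2 is at 0.176 to 0.696 CPM in WT and p21-/- and at 3.90 to 14.7 CPM in the 4 transgenic libraries.

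Setting the GFPlo libraries beside total Lmo2Tg DN3 cells, which carry the same transgene, gives levels across tables. The tables were normalised separately, and their names read as counting on the reverse strand for GFP libraries and without regard to strand for genotype libraries. The ages given for the mice differed, although the study's legend and methods conflict on this, and doxycycline was described for the GFP mice only. No test was made, and these differences cannot be told apart from that of the sort. Over 10523 genes with at least 1 CPM in both groups the median log2 ratio of GFPlo to Lmo2Tg means was 0.13, with percentiles 10 and 90 at -0.58 and 0.765. GFPlo means were 37.0-fold above Lmo2Tg means for Aif1l, 23.1-fold for Slco5a1, 23.0-fold for Ephb4 and 7.39-fold for Fibcd1, all from low Lmo2Tg counts, and Dmrtc2 had 2 counts in each Lmo2Tg library, too few for a ratio. Ephb4 was the one of these genes that is itself among the 10523, of which 5 had a higher ratio. Members were chosen on their GFPlo and GFPhi values, so these ratios, and those of Lmo2Tg to GFPhi means, are partly set by that choice. For the other members the ratio was 5.50 for Acox2, 3.16 for Plxnd1, 2.04 for Laptm4b, 1.93 for Acy3 and 1.73 for Cyth3. Lmo2Tg means were in turn above GFPhi means, from 2.17-fold for Acox2 to 5.70-fold for Aif1l, in the 8 genes other than Fibcd1 and Dmrtc2. These 2 genes had 0 to 2 counts per GFPhi library and are given no ratio. Aif1l with 2 to 8 and Slco5a1 with 1 to 7 counts per GFPhi library also rest on few reads. How many of all genes have Lmo2Tg above GFPhi means is not given here, so the order is no trait of the members. In bulk RNA, fewer cells that contain a transcript and less of it per cell cannot be told apart. The study described the GFPhi cells as a rare population among Lmo2Tg DN3 cells. What the gap between GFPlo and total Lmo2Tg cells owes to the mix of cells was not tested.

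**Figure D2:**
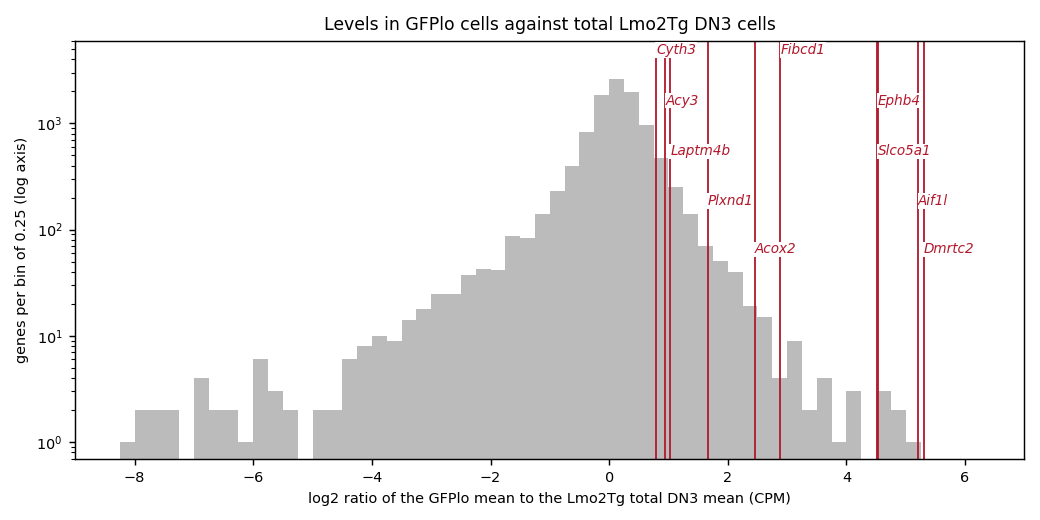
Number of genes (log axis) by the log2 ratio of the GFPlo mean to the Lmo2Tg total DN3 mean, over the 10523 genes with at least 1 CPM in both groups (grey), with the 10 genes as red lines; Aif1l, Fibcd1, Dmrtc2 and Slco5a1 are below 1 CPM in Lmo2Tg and are marked without being counted in the bars, Dmrtc2 from 2 counts in each Lmo2Tg library. Ephb4, Slco5a1, Aif1l and Dmrtc2 lie at the right end, and Cyth3, Acy3 and Laptm4b lie within the right flank of the grey distribution. GFPlo values were used in choosing the 10 genes, so their places are partly set by the choice.

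The effect of the Lmo2 transgene was tested in total DN3 cells, in mice with and without p21. Of the 10 genes, 9 passed the count filter and Dmrtc2 did not. In Lmo2Tg against WT cells 1 of the 9 was called, Acox2, where a call is a change of more than 2-fold at an FDR of 0.05 and 12% of all 11840 genes tested were called, 7.29% higher and 4.7% lower. Acox2 rose by a log2 fold change of 4.33 (20.1-fold, SE 0.57, 95% interval 3.06 to 5.60, adjusted p = 2.32e-04 in edgeR's quasi-likelihood test). In Lmo2Tg p21-/- against p21-/- cells it rose by 4.41 (21.3-fold, SE 0.67, adjusted p = 6.47e-04 in the same test), and here 2 of 9 members were called, against 10.4% of all genes, 6.15% higher and 4.24% lower. The Lmo2Tg libraries L2 and L3 differed from each other, at 14.7 and 3.90 CPM. Without L2 the log2 fold change against WT was 3.09 and without L3 it was 5.0, and both were called.

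The other called gene was Plxnd1, which fell by a log2 fold change of -1.05 in Lmo2Tg p21-/- against p21-/- cells (SE 0.12, adjusted p = 9.39e-05 in edgeR's quasi-likelihood test). In Lmo2Tg against WT cells its log2 fold change of -0.99 (SE 0.11, adjusted p = 8.17e-05) stopped just short of 2-fold. It passed there without WT replicate 3 (-1.02) and without Lmo2Tg library L2 (-1.15). Laptm4b passed 2-fold in the p21-deficient comparison without Lmo2Tg p21-/- replicate 2 or without p21-/- replicate 2, which brought that count to 4 of 10 together with Dmrtc2. Laptm4b had log2 fold changes of 0.70 (SE 0.14, adjusted p = 0.0031) and 0.97 (SE 0.16, adjusted p = 9.54e-04) in these comparisons, below 2-fold but beyond the spread between libraries.

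Of the genes close to absent in total DN3 cells, Slco5a1 had a log2 fold change of 2.38 in Lmo2Tg against WT cells (SE 0.88, 95% interval 0.44 to 4.32), from 16 counts over 2 libraries against 5 counts over 3, and an adjusted p of 0.0553 in edgeR's test. It passed with limma-voom (adjusted p = 0.0388), without the count filter (0.0431), and without either of the p21-/- libraries (0.0343 without replicate 1, 0.0356 without replicate 2). In Lmo2Tg p21-/- against p21-/- cells its log2 fold change was 0.85 (SE 0.72, adjusted p = 0.397). Aif1l had 0.57 and 0.59, Ephb4 0.66 and -0.15 and Fibcd1 0.16 and -0.10 on the log2 scale in the comparisons without and with p21 loss, with adjusted p-values from 0.41 to 0.882 in edgeR's quasi-likelihood test. Without library L2, Aif1l and Ephb4 had -0.48 and -0.72 against WT, so their direction rested on that library. The 95% interval of Ephb4 against WT ran from -0.71 to 2.03.

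**Figure D3:**
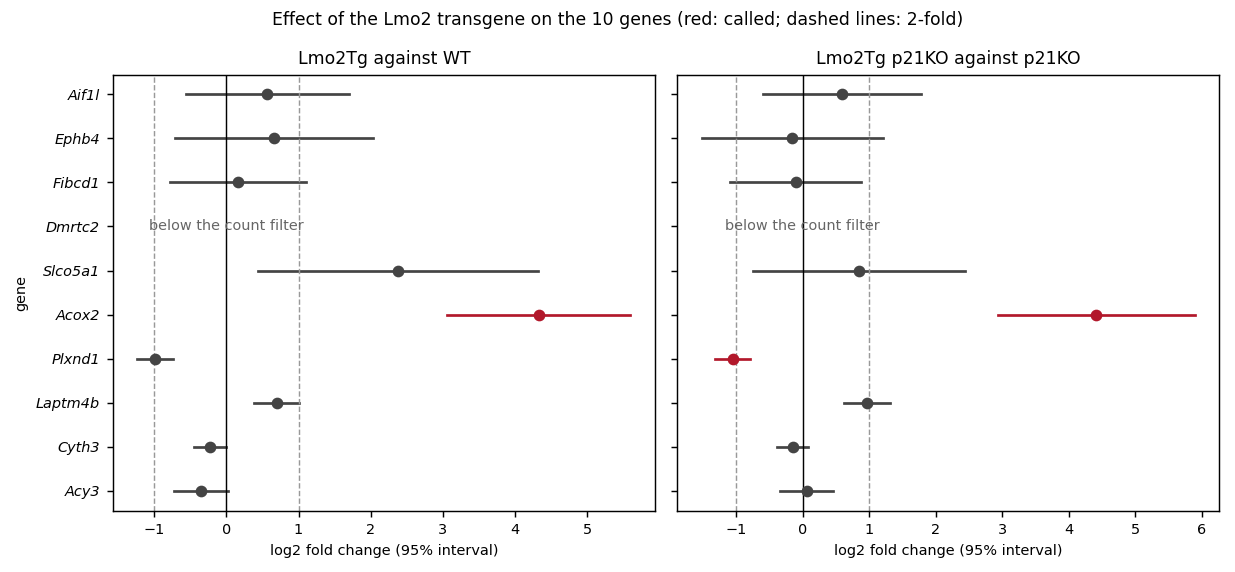
Log2 fold changes of the 10 genes (points) with 95% intervals (lines) from the fit of all genotype libraries, in mice with p21 (left) and without p21 (right); red marks called genes, dashed lines mark 2-fold, and Dmrtc2 was below the count filter. Acox2 is the one gene called in both panels, at 4.33 and 4.41.

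Every transgenic library was above every other genotype library for Acox2 and Laptm4b and below for Plxnd1 and Cyth3, 2 genes in each direction, while 17.9% of all genes were higher and 17.2% lower in this way. For Cyth3 the difference was small, with a log2 fold change of -0.23 (SE 0.10, adjusted p = 0.0929) against WT. Acy3 had -0.35 (SE 0.17, adjusted p = 0.126) against WT and 0.06 (SE 0.18, adjusted p = 0.828) against p21-/- libraries. Of the 10 genes 8 were higher in Lmo2Tg library L2 than in L3, while Lmo2 itself was lower in L2, at 41.4 against 100 CPM. Among the 8, Dmrtc2 had 2 counts in each library and differed by library size alone, and Slco5a1 had 9 and 7 counts. The share of all genes higher in L2 is not given here, so this count is no trait of the members.

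Loss of p21 was not followed by a called change in any of the 9 genes tested. None passed in p21-/- against WT cells, where adjusted p-values were 0.984 to 0.998 and 0.101% of all genes were called (0.0422% higher and 0.0591% lower), and none in Lmo2Tg p21-/- against Lmo2Tg cells, where they were 0.292 to 0.998 and 1.88% of all genes were called (0.431% higher and 1.44% lower). None passed in the interaction of the transgene with p21 loss either, at adjusted p-values of 0.409 to 0.992 and with 0.802% of all genes called (0.076% higher and 0.726% lower). No member had an unadjusted p under 0.05 in these 3 comparisons in edgeR's quasi-likelihood test, and the count of members called was 0 with DESeq2 and limma-voom in each. Intervals were narrow for some genes, as for Plxnd1 in Lmo2Tg p21-/- against Lmo2Tg cells (-0.43 to 0.13) and Cyth3 (-0.15 to 0.33). They were wide for the others, as for Ephb4 (-1.36 to 1.47), Acox2 (-1.02 to 1.02) and Slco5a1 (-1.19 to 1.88), all of which include a 2-fold change. Without Lmo2Tg p21-/- replicate 2, Dmrtc2 passed the filter and was called higher in Lmo2Tg p21-/- than in Lmo2Tg cells, from the 21 counts of replicate 1.

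Genes beside the members were looked at, 3 on each side, since Fibcd1 and Aif1l lie 104134 bp apart. The gene between them, Lamc3 (ENSMUSG00000026840, chromosome 2 from 31887291 to 31946539), which encodes a laminin gamma chain of the extracellular matrix, had the same pattern. It had 15.4, 22.3 and 23.2 CPM in GFPlo and 0.661, 0.205 and 0.298 CPM in GFPhi libraries, and 0.0605 to 1.07 CPM in the 9 genotype libraries. Its log2 fold change of GFPhi against GFPlo was -5.70 (SE 0.44, adjusted p = 0.00191 in edgeR's quasi-likelihood test, where 1.95% of all genes were called lower).

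Of the genes flanking these 3, Qrfp, next to Fibcd1, was below the filter at means of 0.132 CPM in GFPlo and 0.035 CPM in GFPhi cells. Abl1, the tyrosine kinase gene beyond it, had a log2 fold change of -0.53 (adjusted p = 0.0112) with 340 CPM in GFPlo and 235 CPM in GFPhi cells, and Nup214, a nuclear pore gene that starts 994 bp beyond Aif1l, had -0.26 (adjusted p = 0.0239) with 223 and 186 CPM. The median log2 fold change of all 923 genes tested on chromosome 2 was -0.18 and that of the 464 on chromosome 15, which holds Laptm4b, was -0.43, compared with 0.02 over all genes. Sulf1, an extracellular sulfatase for heparan sulfate that lies 5357 bp from Slco5a1, had 3.70, 4.19 and 5.22 CPM in GFPlo libraries and 3, 7 and 0 counts in GFPhi libraries (log2 fold change -5.15, SE 0.69, adjusted p = 0.00884). It was called higher in Lmo2Tg than in WT cells, with a log2 fold change of 1.19 (SE 0.38, adjusted p = 0.0303), from 0.889 and 1.41 CPM against 0.445 to 0.552 CPM.

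Of 55 distinct neighbours that are not members, 36 were tested, 2 were called lower in GFPhi cells (Lamc3 and Sulf1), 0 were called higher, and their median log2 fold change was -0.03. Neither call remained when GFPlo replicate 2 or GFPlo replicate 3 was left out, or with the replicate number as a block, since then no gene at all passed, and this holds equally for the calls of Plxnb2, Slco3a1 and Ms4a1. In Lmo2Tg against WT cells Kctd6, which lies 1948 bp from Acox2 and encodes an adaptor of a ubiquitin ligase, was called higher with a log2 fold change of 1.43 (SE 0.18, adjusted p = 1.69e-04). It had 9.84 and 9.51 CPM in Lmo2Tg against 3.43 to 3.86 CPM in WT libraries, but only -0.92 (adjusted p = 0.0564) in GFPhi against GFPlo cells. Zan, which overlaps the end of Ephb4 on the opposite strand, was called higher in Lmo2Tg cells at 1.21 (SE 0.36, adjusted p = 0.0229), and reads of the overlap cannot be assigned where strand was not used. The same limit holds for Aif1l, which overlaps the antisense gene Gm13442, and for Laptm4b, which overlaps the processed pseudogene Gm18949, both on the opposite strand.

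**Figure D4:**
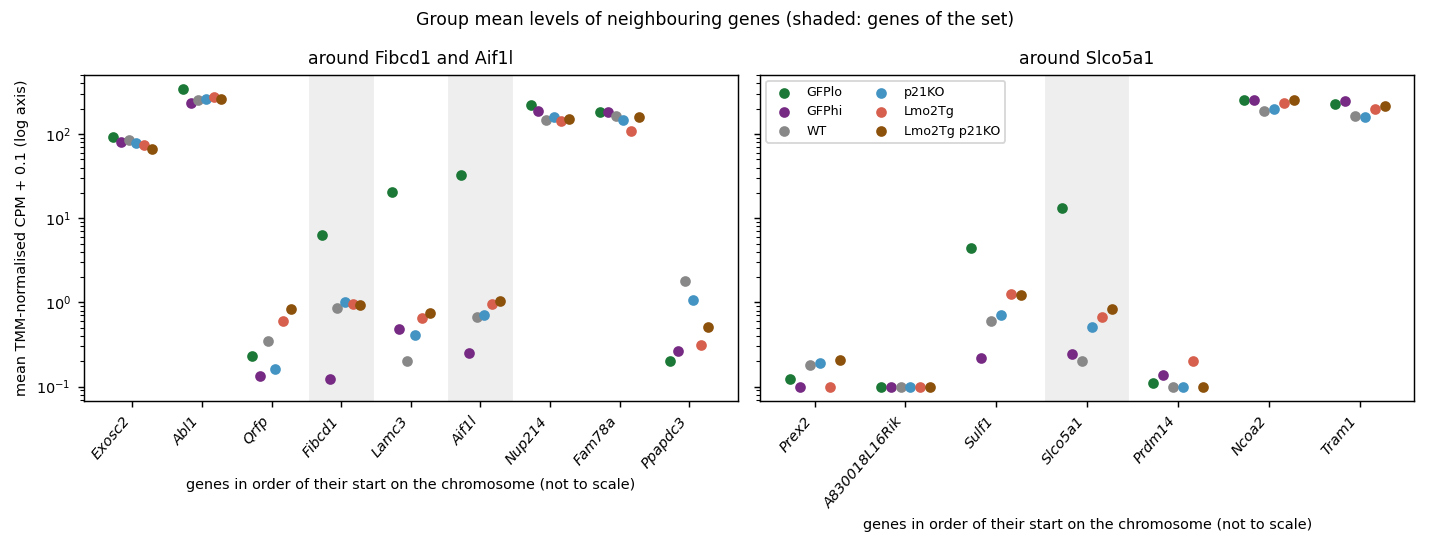
Mean TMM-normalised CPM (plus 0.1, log axis) of each group for the genes around Fibcd1 and Aif1l (left) and around Slco5a1 (right), in order along the chromosome and not to scale, with the members shaded. Fibcd1, Lamc3 and Aif1l are high in GFPlo alone, at 6.27, 20.3 and 32.2 CPM, between Abl1 and Nup214, which are at 142 CPM or more in every group.

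Lists of relatives were read against the shares of all genes called, which were 0.302% higher and 1.95% lower in GFPhi cells and 7.29% higher and 4.7% lower in Lmo2Tg against WT cells. Of 21 Eph receptors and ephrins other than Ephb4, 9 were tested between GFPhi and GFPlo cells and 0 were called (median log2 fold change -0.43), with Epha1 at -1.84 (adjusted p = 0.0271). Efnb2, the ligand of EphB4, had means of 0.853 CPM in GFPlo and 0.555 CPM in GFPhi cells. In Lmo2Tg against WT cells 8 were tested, with Efnb2 (log2 fold change 2.05, adjusted p = 0.0127) and Efnb3 (1.54, adjusted p = 3.85e-04) called higher and Epha2, Efna4 and Efnb1 lower. Epha2, a receptor for ephrin-A ligands, had the largest change of these, a log2 fold change of -4.66 (adjusted p = 3.38e-06), from a mean of 11 CPM in WT to 0.435 CPM in Lmo2Tg cells.

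Among 30 plexins, semaphorins and neuropilins 17 were tested, and Plxnb2, a receptor for class 4 semaphorins, was the one gene called between GFPhi and GFPlo cells. It had 20.9, 31.5 and 31 CPM in GFPlo and 0.367, 1.06 and 0.484 CPM in GFPhi libraries (log2 fold change -5.43, adjusted p = 0.00197). Like Plxnd1 it was lower with the transgene, with log2 fold changes of -1.81 against WT (adjusted p = 8.45e-05) and -1.76 against p21-/- libraries (adjusted p = 1.61e-04), from a mean of 16.1 CPM in WT to 4.60 CPM in Lmo2Tg cells. Sema4g and Plxna1 had -2.60 (adjusted p = 0.0239) and -1.08 (adjusted p = 0.0121) between GFPhi and GFPlo cells and were not called. Sema3e, the ligand of plexin D1, had no counts in any GFP library. Sema6c was called higher and Sema6b lower in Lmo2Tg against WT cells, with log2 fold changes of 1.30 and -1.08.

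In the remaining lists 1 gene was called between GFPhi and GFPlo cells. Of 14 tested relatives and partners of Cyth3 0 were called, and the other cytohesins Cyth1, Cyth2 and Cyth4 had log2 fold changes of 0.47, 0.18 and -0.33. In Lmo2Tg against WT cells Cytip, which binds cytohesin 1, and Frmd4b, which binds cytohesin 3, were called higher (1.51 and 3.48) and Iqsec2, another ARF exchange factor, lower (-1.26). Of 17 tested genes of peroxisomal fatty acid oxidation 0 were called between GFPhi and GFPlo cells, with Slc27a2 at -3.45 (adjusted p = 0.0182). Of the same 17 genes 1 was called in Lmo2Tg against WT cells, the fatty acid transporter Slc27a2 (-2.06, adjusted p = 3.74e-04). Of 13 organic anion transporters 2 were tested, and Slco3a1 was called higher in GFPhi cells (1.92, adjusted p = 0.00484), opposite in direction to Slco5a1. Of 3 tested relatives of the other members 0 were called.

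By profile over the 9 genotype libraries, the genes most like the mean of the 9 tested members (each centred on its log2 mean) were Gpr83, a G protein-coupled receptor (Pearson r 0.976), Hspa12b (0.935), Pdzd2 (0.931), Bcl3 (0.929) and Il9r, the interleukin-9 receptor (0.912). The 9 points share depth and the contrast between transgenic and other mice, so these values are a description. Pdzd2 was lower in GFPhi cells as well (24.6 to 4.36 CPM on average, log2 fold change -2.49), and Hspa12b, with means of 9.13 and 0.298 CPM, had -4.88 (adjusted p = 0.0249) and was not called. Gpr83, Bcl3 and Il9r had -0.54, 0.57 and -0.18, and none was called.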

How the data were processed

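RNA-seq counts per protein-coding gene were used as the authors deposited them, in 1 table for GFPhi and GFPlo cells and 1 for the genotypes. The submitters' processing notes name STAR 2.4.2a, featureCounts, limma and mm10, and the table names read as reverse-stranded counting for GFP libraries and counting without strand for genotypes. Columns were assigned by name, 1 column could not be assigned and was not used, and p21-/- replicate 3 was not analysed here. The Lmo2Tg columns (L2, L3) were assigned to the group only, since their names also match labels of GFPlo samples. Of the gene identifiers, 21721 (98.2%) matched GENCODE M21 (GRCm38). Each table was fitted with edgeR 4.0.16 in R 4.3.3: filterByExpr (minimum count 10, total 15), TMM, the quasi-likelihood test and Benjamini-Hochberg adjustment over all genes tested, after the script was tested on simulated data. Calls needed more than 2-fold and an FDR of 0.01 (GFP) or 0.05 (genotypes, 1 fit of all groups). Intervals are 95%. Reads carried no molecular identifiers, so floors of 3 counts cover counting error only, and CPM at or under them stand for 0 to 3 reads. Alternatives used RLE factors, DESeq2 1.42.0, limma-voom (limma 3.58.1), other filters, FDR alone, a replicate block and left-out libraries. Deviations of same-numbered GFPhi and GFPlo libraries had correlations of 0.07, -0.079 and 0.099, and those of genotype pairs -0.237 to 0.303. With 2 or 3 libraries per group these values cannot show whether equal numbers mark paired samples. The main fit left pairing out, and the replicate block was run as an alternative. Named genes were the 10 members, Lmo2 and Cdkn1a, called genes and closest relatives or partners from lists of related genes, the 3 neighbours on each side where 1 was called, and the 5 genes most alike over the genotype libraries. The members and lists were chosen with earlier results of these data known, and CACCTG was counted after the promoters were seen.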

Additional observations from a re-analysis of the deposited data

How the results depend on the processing

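Over all genes, 261 were called between GFPhi and GFPlo cells, 741 with DESeq2, 403 by FDR alone and 0 to 1035 with 1 library left out. The count was 0 without GFPlo replicate 2 or 3, 12 without GFPlo replicate 1, 59 and 100 without GFPhi replicate 1 or 2 and 1035 without GFPhi replicate 3, while unadjusted p-values under 0.05 numbered 2428 or more. With the replicate block 0 genes were called (3216 at an unadjusted p under 0.05), against 12 for p21-/- against WT and 1279 for Lmo2Tg p21-/- against p21-/-, where the block left 0 and 2 members called.

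Of the members, 2 were called in Lmo2Tg against WT with limma-voom or no filter (Acox2 and Slco5a1), 3 by FDR alone (with Laptm4b and Plxnd1) and 1 to 2 with a library left out. The range was 2 to 4 in Lmo2Tg p21-/- against p21-/- and 0 to 1 in Lmo2Tg p21-/- against Lmo2Tg, where Dmrtc2 was added without Lmo2Tg p21-/- replicate 2. FDR alone called 4329, 822, 3639 and 163 genes in Lmo2Tg against WT, Lmo2Tg p21-/- against Lmo2Tg, Lmo2Tg p21-/- against p21-/- and the interaction. The interaction had 161 with DESeq2, 224 without filter and 0 to 259 with a library left out, and Lmo2Tg p21-/- against Lmo2Tg 48 to 235. In Lmo2Tg against WT the direction turned for Fibcd1 (-0.10 without WT replicate 2, -0.04 without L3), Aif1l (-0.48 without L2) and Ephb4 (-0.72 without L2). In Lmo2Tg p21-/- against p21-/- it turned for Ephb4 (0.053 with limma-voom, 0.06 without Lmo2Tg p21-/- replicate 1, 0.86 without p21-/- replicate 2), Fibcd1 (0.07 without Lmo2Tg p21-/- replicate 1, 0.28 without p21-/- replicate 1) and Acy3 (-0.11 without Lmo2Tg p21-/- replicate 1). The ranges with 1 library left out, Lmo2Tg against WT first, were -0.10 to 0.33 and -0.39 to 0.28 for Fibcd1, -0.72 to 1.37 and -0.76 to 0.86 for Ephb4, -0.48 to 1.20 for Aif1l and, in the second comparison, -0.11 to 0.20 for Acy3. Acox2 ranged from 3.09 to 5.0 and from 3.72 to 5.66. The cause was not tested.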

Other observations

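In 53 genes the lowest GFPlo library was at least 10 times the highest GFPhi library. Of these, 9 were also at least 10 times above the highest of the 9 genotype libraries and had at least 1 CPM in each GFPlo library: Dlx1, Aif1l, Lamc3, Slco5a1, Lgals7, Pcsk1, Prune2, Cd248 and Rprm, of which 2 are members. They were chosen after their values were seen. Dlx1, a homeodomain transcription factor, had 34.4, 48.5 and 57.4 CPM in GFPlo and 1.62, 2.66 and 0.521 CPM in GFPhi libraries. In total DN3 cells it had 0 to 0.127 CPM in WT, 0.0586 and 0.190 in p21-/-, 2.00 and 0.957 in Lmo2Tg and 1.86 and 2.11 in Lmo2Tg p21-/- libraries, so that every transgenic library lay above the others.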
